A study of Homo sapiens with 12 samples.

Results

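Genes with an antisense name, such as FGD5-AS1, were followed in TE-1 cells together with the gene that each name gives, here FGD5. A gene was included if its name ended in -AS and a single digit and its mean over the 12 libraries was at least 1 FPKM (sequenced fragments scaled to transcript length and library size). The members were thus chosen by their mean level, and EPB41L4A-AS1 was left aside. Of 1248 antisense names among the 63811 genes of the deposited table, 385 were listed at 0 in all libraries and 302 were members of the set. Their level is therefore a description with no test, whereas the rule itself uses no contrast between groups. Just inside the limit were MBNL1-AS1 at 1.01 FPKM, TONSL-AS1 at 1.004 FPKM and DNAJC27-AS1 at 1.002 FPKM, and just outside it were ADIRF-AS1 at 0.995 FPKM, ZRANB2-AS2 at 0.977 FPKM and STEAP3-AS1 at 0.974 FPKM. A partner was in the table for 298 members, matched by the name given or through a gene's older symbol. This gave 294 distinct partners, of which 257 had a mean of at least 1 FPKM. No gene matched the names given by RPARP-AS1, SSSCA1-AS1, HOXC-AS1 and HOXC-AS3.

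Antisense long non-coding genes are transcribed from the strand opposite another gene, either across its body, from its promoter in the other direction, or into its 3′ end. Some act on the partner in cis, by transcription across it, by recruiting chromatin factors or by pairing with its RNA, and many are turned over quickly by the nuclear exosome, the RNA-degrading complex of the nucleus. Where the genes of a pair overlap, their RNAs come from the same DNA. Sequencing then tells them apart only if the library keeps the strand and the counting uses it. The sources used here do not give whether strand was used, so reads of a member and of an overlapping partner cannot be told apart with certainty.

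TE-1 is an established human oesophageal cancer line. The cells were transfected and harvested 48 h later in 4 groups of 3 libraries: OE_IFI (vector that overexpresses IFI6, an interferon-induced gene), OE_NC (the control of that vector), sh_IFI (interference vector with a hairpin against IFI6) and sh_NC (its control). The question set by the design is which genes follow the level of IFI6. Nothing in the labels says that replicate libraries were separate cultures, and p-values therefore cover only the spread among these libraries, which may be technical.

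Summed FPKM over all genes was 456297 to 568643 per library. A rough estimate from steps in the low values put the libraries within a factor of 1.29 of each other in depth. Only 44% to 48% of those values lay within 1% of a step, so this estimate is uncertain. No read counts were available, so the number of fragments behind a value is unknown, and values near 1 FPKM carry the largest counting error. IFI6 itself had 309, 268 and 358 FPKM in OE_IFI, against 27.3, 17.9 and 28.8 FPKM in OE_NC (log2 fold change 3.62 ± 0.17 SE, limma adjusted p = 9.6e-07), and 15.1, 13.9 and 14.7 FPKM in sh_IFI, against 24.9, 24.1 and 21.2 FPKM in sh_NC (log2 fold change -0.64, limma adjusted p = 0.84). The OE_NC libraries formed a group of their own: on the first principal component of log2 values (21.5% of the variance) their scores were -35.4, -26.3 and -26.3, against 7.88 to 13.0 in the remaining 9 libraries. Every contrast with OE_NC below carries that separation. OE_IFI against sh_NC does not use OE_NC, but there the kind of vector and the level of IFI6 cannot be told apart. The simple-epithelial keratins KRT8 and KRT18 averaged 930 and 439 FPKM, and KRT19 averaged 0.375 FPKM. The markers that define squamous epithelium were absent or nearly so: KRT5, KRT6A, SOX2 and the epithelial adhesion gene EPCAM were listed at 0 in all 12 libraries, and TP63 averaged 0.101 FPKM and CDH1 0.042 FPKM. Of the immune markers, PTPRC averaged 0.0218 FPKM, CD3E was listed at 0 and CD68 averaged 1.06 FPKM (0.551 to 2.09 FPKM). The endothelial markers were near 0 (PECAM1 0.0284 FPKM, VWF 0.0162 FPKM), and the 4 fibroblast markers summed to 5.16 to 8.29 FPKM.

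For most members the larger part of the level did not come from annotated antisense transcripts, which supplied at least 50% in 91 of 302. A gene's FPKM in these tables is the sum over its transcripts, and these are either annotated ones, with an Ensembl identifier, or ones that the authors assembled from the reads. In 202 of the 302 members an assembled transcript had the highest level, and in 100 an annotated one. The annotated transcripts supplied a median of 18.1% of a member's FPKM (quartiles 1.1% and 57.8%), whereas for the partners and for all 14006 genes tested the median was 100%. They supplied less than 10% in 128 members, nothing in 27 and at least 95% in 30. Counted by annotated transcripts alone, 105 members would have reached 1 FPKM.

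Most leading assembled transcripts lay over the partner. With coordinates as the deposited tables give them, 101 of 200 covered at least 90% of the partner's locus, 79 covered part of it and 20 none. For leading annotated transcripts these counts were 3, 66 and 29 of 98. An end within 50 bases of an end of the partner was found for 64 of the 200 assembled and 3 of the 98 annotated leaders. By the GENCODE release 29 annotation, 118 of the 298 pairs overlap at their 5′ ends, 66 overlap at their 3′ ends, in 86 one gene lies within the other, and 21 are divergent without overlap and within 1 kb. Another 6 do not overlap and are arranged otherwise, and in 1 the matched partner lies on another chromosome. Levels are per length, but overlapping genes of a pair may share reads, which limits a comparison within pairs. As listed, the antisense gene was above its partner in 59 of 298 pairs by all its transcripts and in 38 by the annotated ones.

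**Figure D1:**
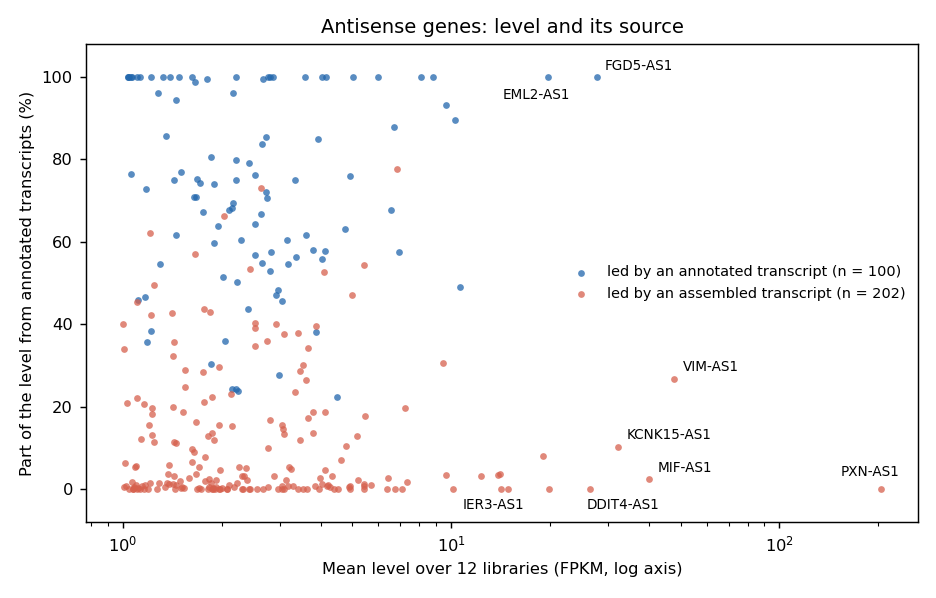
Mean level of each of the 302 antisense genes over 12 libraries (FPKM, log axis) against the part of that level that came from annotated transcripts (percent). Blue points are led by an annotated transcript (n = 100) and red points by an assembled one (n = 202); most of the highest points, PXN-AS1 among them, lie near 0%, while FGD5-AS1 and EML2-AS1 lie at 100%.

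The 8 members of highest level show both kinds. PXN-AS1, named after the focal adhesion gene PXN, averaged 203 FPKM, of which annotated transcripts supplied 0.126%. Its leading transcript, assembled, runs from 120196654 to 120208054 on chromosome 12, over RPLP0, the gene of a ribosomal stalk protein. VIM-AS1 (47.8 FPKM, 26.8% annotated) and MIF-AS1 (40 FPKM, 2.39% annotated) were led by assembled transcripts that reach over VIM, the intermediate filament gene of mesenchymal cells, and MIF, a cytokine gene. DDIT4-AS1 (26.5 FPKM) had no value from annotated transcripts, and IER3-AS1 (19.9 FPKM) 0.0707%. KCNK15-AS1 (32.2 FPKM, 10.3% annotated) had a leading transcript over WISP2, while its named partner KCNK15, a potassium channel gene, averaged 0.134 FPKM. FGD5-AS1 (27.9 FPKM) and EML2-AS1 (19.7 FPKM) were measured almost wholly through annotated transcripts. VIM-AS1 varied within groups more than between them. It had 50.4, 45.7 and 20.9 FPKM in OE_IFI, 59.6, 18 and 89.6 FPKM in OE_NC, 58.5, 16.4 and 50.5 FPKM in sh_IFI and 51.7, 17.3 and 95.3 FPKM in sh_NC, and all groups overlapped.

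With IFI6 overexpressed, 19 of the 302 antisense genes changed against the control vector: 9 rose and 10 fell (6.29%; limma on log2(FPKM + 1), Benjamini-Hochberg adjusted p under 0.05 over 14006 genes). Over all genes tested the share was 7.32%, 4.09% higher (573) and 3.23% lower (452), and the members' share was near it. Their median log2 fold change was -0.007, against 0.04 over all genes. Of the 19, 14 were led by an assembled transcript, among them all 10 that fell, beside 202 of all 302 members. In the same contrast restricted to annotated transcripts, 105 members were tested, 3 rose and 0 fell, beside 7.51% of the 11909 genes tested that way (4.22% higher and 3.29% lower); of the members, 17 had an unadjusted p under 0.05. The count depended on the libraries: members that rose and fell numbered 5 and 6 without OE_IFI replicate 1, 4 and 4 without OE_IFI replicate 2, 4 and 10 without OE_IFI replicate 3, 7 and 6 without OE_NC replicate 1, 5 and 7 without OE_NC replicate 2 and 2 and 7 without OE_NC replicate 3. Fitted on the 6 libraries of these groups alone, with fewer degrees of freedom, 0 members passed, and 123 genes rose and 102 fell. Scaling by the median of ratios gave 6 and 12 members, with 541 and 604 genes.

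The 3 members that rose in annotated transcripts were FGD5-AS1, THAP7-AS1 and ADAMTSL4-AS1. On annotated transcripts alone, all 3 did not pass together in any fit that left out a library: 2 members rose without OE_IFI replicate 1 (ADAMTSL4-AS1 and C1RL-AS1), and 1 rose without OE_IFI replicate 2 (THAP7-AS1), OE_NC replicate 2 (ADAMTSL4-AS1) or OE_NC replicate 3 (THAP7-AS1). Without OE_IFI replicate 3, ADAMTSL4-AS1 and CEBPB-AS1 passed, and without OE_NC replicate 1, ADAMTSL4-AS1, FGD5-AS1 and ALOX12-AS1, with 1 of the members lower in each of these fits. FGD5-AS1, a widely expressed long non-coding RNA, had 33.8, 27.8 and 29.5 FPKM in OE_IFI, against 21.7, 20.3 and 16.9 FPKM in OE_NC. All OE_IFI libraries lay above all OE_NC libraries (log2 fold change 0.61 ± 0.15 SE, limma adjusted p = 0.035). In sh_IFI it had 30.9, 26.6 and 36.5 FPKM, against 34.7, 25.5 and 30.6 FPKM in sh_NC, so that the OE_NC libraries were the lowest of the 12. Its partner by name, FGD5, a guanine exchange factor gene best known from endothelium, was listed at 0 in every library but OE_NC replicate 1, at 0.0229 FPKM. The gene over its start is NR2C2, a nuclear receptor on the other strand, which had 4.53, 4.63 and 4.59 FPKM in OE_IFI, against 3.71, 5.63 and 6.63 FPKM in OE_NC (log2 fold change -0.15, limma adjusted p = 0.73). The call on FGD5-AS1 held without OE_NC replicate 1 and was lost without each of the other libraries of the contrast, at adjusted p values of 0.11, 0.058 and 0.061 without OE_IFI replicates 1, 2 and 3 and 0.063 and 0.12 without OE_NC replicates 2 and 3. It was also lost under median-of-ratios scaling, under quantile normalization, and in the fit on only the 6 libraries compared.

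THAP7-AS1 lies head to head with THAP7, a zinc-finger repressor gene. It had 4.95, 4.05 and 5.12 FPKM in OE_IFI, against 2.42, 1.93 and 3.25 FPKM in OE_NC (log2 fold change 0.71 ± 0.17 SE, limma adjusted p = 0.03). THAP7 had 3.44, 4.72 and 5.11 FPKM in OE_IFI, against 1.67, 3.33 and 2.7 FPKM in OE_NC (log2 fold change 0.62, limma adjusted p = 0.11). For both genes the OE_IFI and OE_NC libraries did not overlap, and only the antisense gene passed. The call on THAP7-AS1 was lost without OE_IFI replicates 1 and 3 (adjusted p = 0.086 and 0.075) and without OE_NC replicates 1 and 2 (0.077 and 0.086). It was also lost by quantile normalization, with replicate number added to the fit, and in the fit on only the 6 libraries compared. ADAMTSL4-AS1 had 4.27, 5.79 and 5.4 FPKM in OE_IFI, against 2.4, 3.41 and 2.16 FPKM in OE_NC (log2 fold change 0.76 ± 0.15 SE, limma adjusted p = 0.013). Its partner ADAMTSL4, a matrix protein gene, had 6.68, 5.49 and 6.63 FPKM in OE_IFI, against 5.26, 8.43 and 6.96 FPKM in OE_NC, and these overlapped. The antisense start adjoins, on the same strand, the 3′ end of MCL1, an anti-apoptotic gene with 56.7, 70.4 and 62.3 FPKM in OE_IFI, against 49.8, 85.8 and 65.5 FPKM in OE_NC (log2 fold change -0.06, limma adjusted p = 0.89). Neither neighbour passed. Among the fits that left out a library, the call on ADAMTSL4-AS1 was lost without OE_IFI replicate 2 (adjusted p = 0.052) or OE_NC replicate 3 (0.054). It was also lost in the fit on only the 6 libraries compared.

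The DNA at the starts of these genes is shown because the pairs differ in how the starts are shared. The windows are RefSeq's (GRCh38.p14), from 250 bases before to 50 after a gene's start, cut where a UTR of any gene begins by GENCODE release 29. Windows were matched by symbol for 213 of the 302 members and 250 of the 294 partners. Capitals mark matches on either strand to CCAAT (the CCAAT box), to GGGCGG (the GC box), to CCGGAA (the ETS core) or to TATAAA (the TATA box), and no 2 matches overlap in these windows.
FGD5-AS1, chr3:14948392-14948691, minus strand: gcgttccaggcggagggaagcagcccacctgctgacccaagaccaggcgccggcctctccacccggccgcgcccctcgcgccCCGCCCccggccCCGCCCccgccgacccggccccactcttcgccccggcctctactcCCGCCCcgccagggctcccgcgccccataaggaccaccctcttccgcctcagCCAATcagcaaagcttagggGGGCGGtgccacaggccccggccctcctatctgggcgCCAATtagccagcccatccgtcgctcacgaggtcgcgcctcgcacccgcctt
THAP7 and THAP7-AS1, chr22:21002197-21002368, minus strand, upstream of THAP7: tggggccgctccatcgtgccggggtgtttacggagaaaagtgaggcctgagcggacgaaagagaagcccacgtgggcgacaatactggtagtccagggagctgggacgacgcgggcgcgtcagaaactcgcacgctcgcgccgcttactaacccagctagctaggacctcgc
EXOC3 and EXOC3-AS1, chr5:442926-443157, plus strand, upstream of EXOC3: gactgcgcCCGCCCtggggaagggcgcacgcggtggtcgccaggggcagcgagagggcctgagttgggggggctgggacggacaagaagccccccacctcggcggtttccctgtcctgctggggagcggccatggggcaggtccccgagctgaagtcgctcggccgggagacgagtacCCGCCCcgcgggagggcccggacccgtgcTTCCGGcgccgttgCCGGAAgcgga
RPL34 and RPL34-AS1, chr4:108620326-108620565, plus strand, upstream of RPL34: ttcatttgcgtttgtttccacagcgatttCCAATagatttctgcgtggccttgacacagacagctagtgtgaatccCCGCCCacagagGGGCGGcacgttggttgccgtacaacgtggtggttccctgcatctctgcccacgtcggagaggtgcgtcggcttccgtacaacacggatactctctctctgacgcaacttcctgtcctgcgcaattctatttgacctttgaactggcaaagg
The FGD5-AS1 window held 4 matches to GGGCGG and 2 to CCAAT, and the 172 bases shown for THAP7 held none of the 4 motifs. EXOC3 and its antisense gene start 2 bases apart, and the 232 bases shown held 2 matches each to GGGCGG and CCGGAA. RPL34 and RPL34-AS1 start 106 bases apart, and the stretch shown, which holds the start of RPL34-AS1 and ends before that of RPL34, had 2 matches to GGGCGG and 1 to CCAAT. Of all 35116 windows of full length (300 bases), 34.6% held CCAAT, 45% GGGCGG, 17.2% CCGGAA and 11.5% TATAAA. In the cut windows of THAP7, EXOC3 and RPL34 the bases not shown were not searched, so their counts are not on the same footing.

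**Figure D2:**
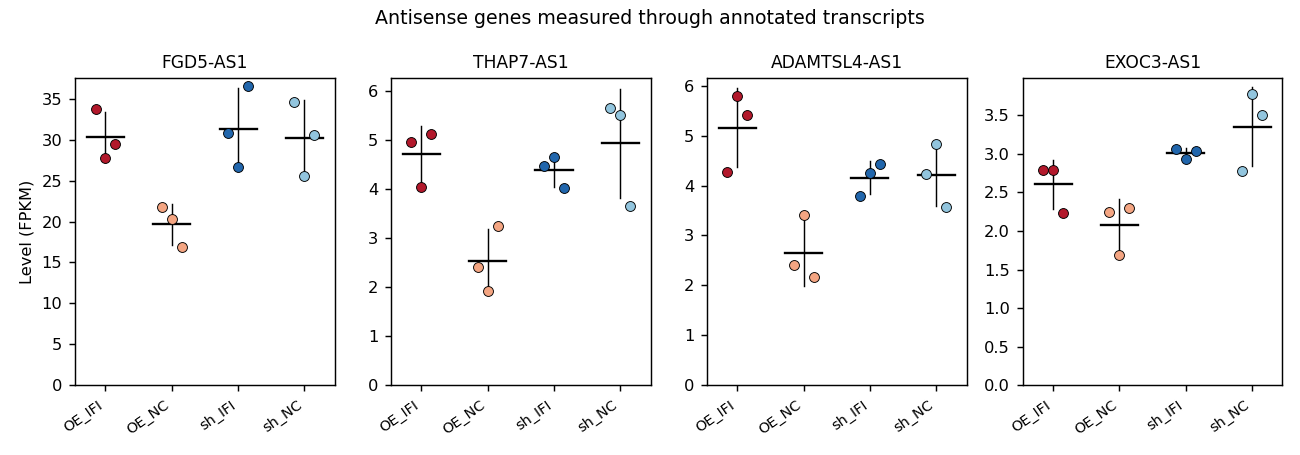
Level of 4 antisense genes measured through annotated transcripts in each library (FPKM), by group. Points are libraries, horizontal bars the mean and vertical bars the SD of 3 libraries; for FGD5-AS1, THAP7-AS1 and ADAMTSL4-AS1 the OE_NC libraries lie below all others, and for EXOC3-AS1 they overlap with OE_IFI and lie below sh_IFI and sh_NC.

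All 10 members that fell were led by an assembled transcript that lies over a coding gene. Such a position is common among assembled leaders: of the 200 with a partner, 101 covered at least 90% of its locus and 79 part of it. IER3-AS1 had 11.9, 14.1 and 18.3 FPKM in OE_IFI, against 28.9, 26.0 and 27.0 FPKM in OE_NC (log2 fold change -0.86 ± 0.13 SE, limma adjusted p = 0.0026). Its leading transcript, assembled, overlaps IER3, a stress-induced immediate early gene, and FLOT1, a lipid raft gene. IER3 had 337, 368 and 441 FPKM in OE_IFI, against 807, 732 and 754 FPKM in OE_NC (log2 fold change -1.01, limma adjusted p = 0.00042), and FLOT1 fell by 0.54 on the log2 scale (limma adjusted p = 0.021). In all 3 genes the OE_IFI libraries lay below all OE_NC libraries.

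RAB11B-AS1 shows that the gene under the transcript and the gene in the name need not be the same. It had 7.42, 7.85 and 11.0 FPKM in OE_IFI, against 18.5, 14.4 and 16.2 FPKM in OE_NC (log2 fold change -0.84 ± 0.14 SE, limma adjusted p = 0.0045). RAB11B, a recycling endosome GTPase and the partner by name, had 7.41, 8.97 and 9.86 FPKM in OE_IFI, against 10.51, 9.9 and 10.9 FPKM in OE_NC (log2 fold change -0.24, limma adjusted p = 0.36). The leading assembled transcript covers 4.88% of RAB11B and reaches over ANGPTL4, a secreted inhibitor of lipoprotein lipase. ANGPTL4 had 55.4, 57.4 and 72.3 FPKM in OE_IFI, against 149, 84.9 and 142 FPKM in OE_NC (log2 fold change -0.98, limma adjusted p = 0.0093). The leading transcript of CD27-AS1 likewise overlaps genes other than its partner, TAPBPL and VAMP1, whose levels are not given here. Its partner CD27, a lymphocyte receptor gene, averaged 0.0443 FPKM. CD27-AS1 had 0.981, 1.14 and 0.859 FPKM in OE_IFI, against 1.88, 2.11 and 2.88 FPKM in OE_NC (log2 fold change -0.71 ± 0.14 SE, limma adjusted p = 0.013), again without overlap.

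In 8 of the 19 pairs the partner was called in the same direction, in 0 in the opposite one, in 9 it was not called and in 2 it was not tested. The other falling pairs called on both sides were IDH1-AS1 (-0.54) with IDH1 (-0.60), the cytosolic isocitrate dehydrogenase, APOBEC3B-AS1 (-0.55) with APOBEC3B (-0.59), a cytidine deaminase, VLDLR-AS1 (-0.44) with VLDLR (-0.76), a lipoprotein receptor, and PROSER2-AS1 (-0.51) with PROSER2 (-0.59), all log2 fold changes. The rising ones were B4GALT1-AS1 (0.65) with B4GALT1 (1.01), a Golgi galactosyltransferase, LANCL1-AS1 (0.57) with LANCL1 (1.21), a glutathione-binding protein, and RPL34-AS1 (0.72) with RPL34 (1.29), a ribosomal protein of the large subunit. B4GALT1-AS1 had 4.86, 4.19 and 3.53 FPKM in OE_IFI, against 2.47, 2.12 and 2.3 FPKM in OE_NC, beside 105, 88.3 and 101 FPKM of B4GALT1 in OE_IFI, against 48.4, 48.5 and 47.6 FPKM in OE_NC. RPL34 is uncertain, since it has processed pseudogenes that can share its reads and annotated transcripts supplied 65.2% of its level; by these alone its log2 fold change was 1.62 (limma adjusted p = 0.11). The calls on IER3-AS1, RAB11B-AS1, CD27-AS1, IDH1-AS1 and B4GALT1-AS1 held without each of the 6 libraries in turn.

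**Figure D3:**
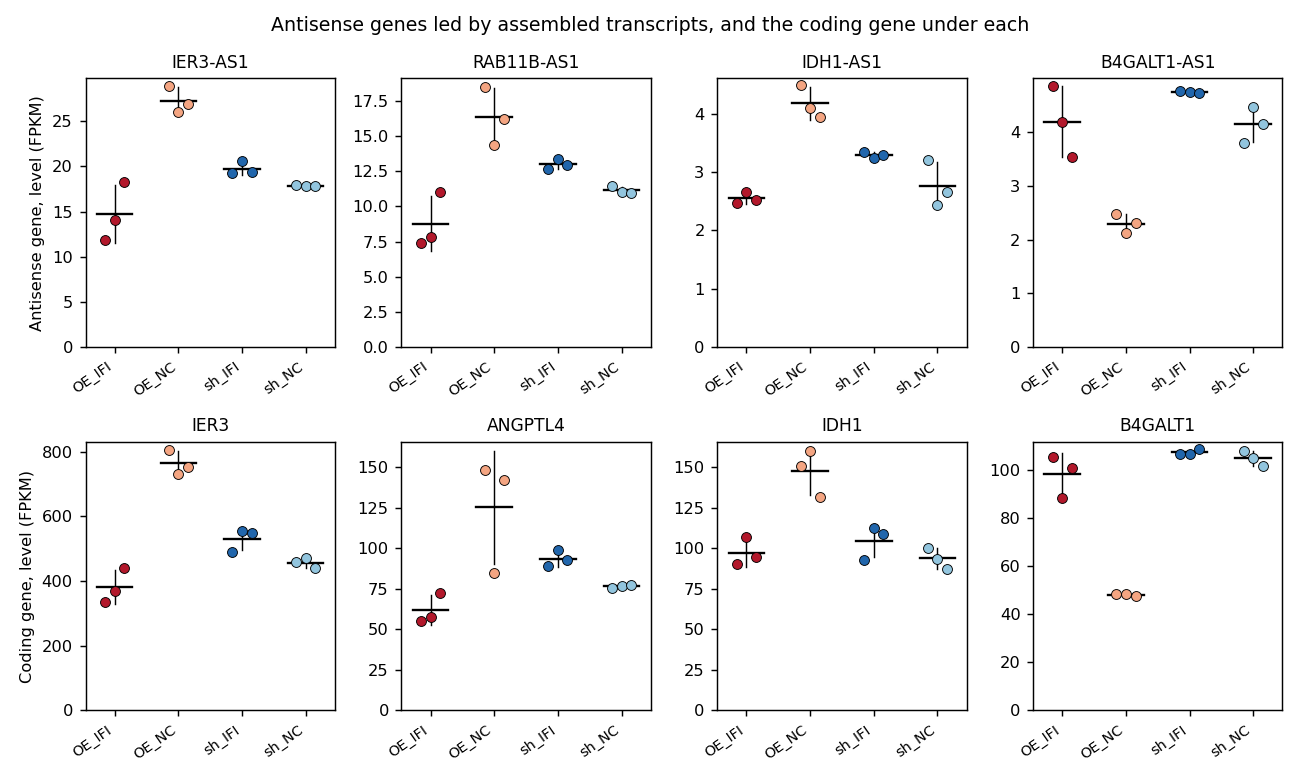
Level of 4 antisense genes led by assembled transcripts (upper row, FPKM) and of a coding gene that lies under the leading transcript (lower row, FPKM) in each library, by group. Points are libraries, bars the mean and SD of 3 libraries; in every panel the OE_NC libraries differ from OE_IFI without overlap, in the same direction above and below.

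The remaining members that fell were LEMD1-AS1 (log2 fold change -0.68), NUCB1-AS1 (-0.63) and UBE2R2-AS1 (-0.40). Annotated transcripts supplied 0.0338% to 5.45% of these 3, and their partners LEMD1 (-0.59), NUCB1 (-0.47) and UBE2R2 (-0.24) had changes of the same sign that did not pass. The remaining members that rose were SLC9A3-AS1 (0.71), BASP1-AS1 (0.67) and VPS9D1-AS1 (0.45). SLC9A3-AS1 had 7.32, 4.03 and 4.66 FPKM in OE_IFI, against 2.82, 3.36 and 2.23 FPKM in OE_NC, while SLC9A3, a sodium-hydrogen exchanger gene, had a log2 fold change of 0.0042 (limma adjusted p = 0.99). By annotated transcripts SLC9A3-AS1 (0.81, limma adjusted p = 0.13) and BASP1-AS1 (0.36, limma adjusted p = 0.47) did not pass. VPS9D1 (-0.16) had the sign opposite to its antisense gene and did not pass. All of these 6 calls were lost without at least 3 of the 6 libraries, and those on UBE2R2-AS1 and VPS9D1-AS1 without each of them, at adjusted p values of up to 0.12 and 0.11.

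Of the 257 partners tested, 14 rose and 9 fell in OE_IFI against OE_NC, which is 8.95% beside 7.32% of all genes. Those that rose included CXXC5 (log2 fold change 1.15), the corepressor subunit gene TBL1XR1 (0.79) and the transcription factor gene TFAP2A (0.54), and those that fell the repressor gene BHLHE40 (-0.82) and the epithelial factor gene ELF3 (-0.47). BHLHE40 had 20.8, 21.1 and 22.6 FPKM in OE_IFI, against 32.7, 43.5 and 40.8 FPKM in OE_NC, and its antisense gene did not pass. RNASEH1 (0.58), whose product degrades RNA in RNA-DNA hybrids, and the RNA methyltransferase gene BCDIN3D (0.50) also rose. Others that rose were the BCL-2 family gene BOK (0.76), the lipid carrier gene STARD7 (0.74), TRAM2 (0.63), TMEM147 (0.61), TTC39C (0.53) and PRKAR2A (0.48), a regulatory subunit of protein kinase A. TXNDC12 (-0.54), an oxidoreductase gene of the endoplasmic reticulum, and KCTD21 (-0.67) fell. For 15 of these 23 partners the antisense gene was not called. On annotated transcripts 10 partners rose and 9 fell of 255 tested (7.45%, beside 7.51% of all genes), and RPL34, BCDIN3D, TFAP2A and TRAM2 did not pass. Leaving out each of the 6 libraries in turn, 11 of the 23 partners passed in every fit. PRKAR2A and TMEM147 passed in 5 fits, APOBEC3B, RNASEH1, TBL1XR1, TRAM2, TTC39C and VLDLR in 3, KCTD21 in 2, ELF3 in 1, and BCDIN3D and TFAP2A in 0. TFAP2A was also lost by both other scalings and BCDIN3D by quantile normalization.

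Members and partners were compared by the kind of leading transcript, in classes chosen after the values were seen. Across the 96 pairs whose leading assembled transcript covered at least 90% of the partner, the log2 fold changes of OE_IFI against OE_NC correlated at Pearson r = 0.67, and the sign was shared in 71. Across the 68 with an assembled leader over part of the partner r was 0.60, and across the 15 with one over none of it 0.09. Across the 81 pairs with an annotated leader r was 0.13, with the sign shared in 40. These are correlations across genes, which are not independent replicates, and the genes of a pair share libraries and may share reads. With sh_IFI against sh_NC, where no gene was called, the classes differed less: r was 0.23 over the 96 pairs and 0.07 over the 81, and Spearman's rho 0.33 and 0.27. There the 24 pairs with an annotated leader over none of the partner had r = 0.37, with the sign shared in 18. In OE_NC against sh_NC r was 0.66 over the 96 pairs and 0.02 over the 81. In OE_IFI against sh_NC, which does not use OE_NC, r was 0.16 and -0.26, with the sign shared in 70 and 40.

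**Figure D4:**
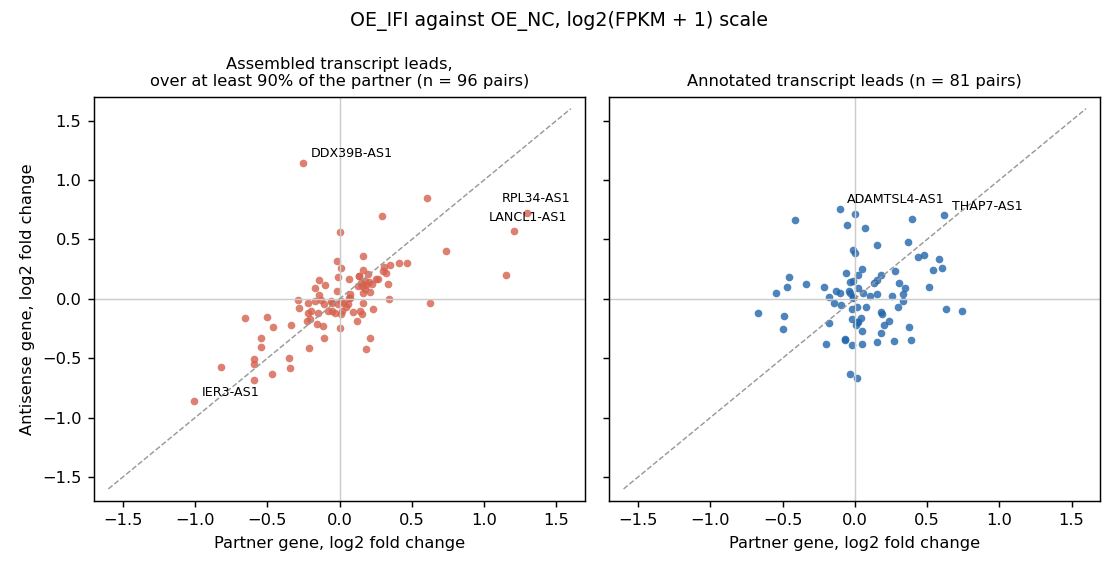
Log2 fold change of OE_IFI against OE_NC for the antisense gene (vertical axis) and its partner (horizontal axis), 1 point per pair, on the log2(FPKM + 1) scale; the dashed line marks equal changes. Left, 96 pairs whose leading transcript is assembled and covers at least 90% of the partner (r = 0.67, sign shared in 71). Right, 81 pairs with an annotated leading transcript (r = 0.13, sign shared in 40).

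The balance within pairs was tested as the difference of log2(FPKM + 1) between antisense gene and partner in each library. Its median over 260 pairs was -2.50 ± 0.058 in OE_IFI and -2.45 ± 0.084 in OE_NC (SD, n = 3 each; difference -0.047, two-sided exact permutation p = 0.5), and -2.50 ± 0.01 in sh_IFI and -2.43 ± 0.054 in sh_NC (difference -0.061, exact permutation p = 0.2). With 3 against 3 libraries this test cannot give a p under 0.1. The largest shifts toward the antisense gene were in DDX39B-AS1 (1.40, exact permutation p = 0.1, n = 3 each), ITFG2-AS1 (1.17, p = 0.6) and COX10-AS1 (1.08, p = 0.3). DDX39B-AS1 had 1.91, 2.85 and 2.81 FPKM in OE_IFI, against 0.17, 0 and 2.37 FPKM in OE_NC, and was also listed at 0 in 1 sh_IFI and 2 sh_NC libraries. By annotated transcripts its shift was 0.23 and that of ITFG2-AS1 -0.40. The largest shift toward the partner was in CXXC5-AS1 (-0.95, exact permutation p = 0.1, n = 3 each). Among the smallest shifts were those of PRKX-AS1 (0.014), PDCD4-AS1 (-0.013), a second gene with the name ITFG2-AS1 (0.0031) and NNT-AS1 (-0.0011). The shift of ADAMTSL4-AS1 was 0.86 (exact permutation p = 0.1, n = 3 each): it made up 45.1% of the summed FPKM of its pair in OE_IFI and 27.9% in OE_NC.

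With the hairpin against IFI6, 0 of the 302 members and 0 of the 257 partners passed in limma, as did 0% of the 14006 genes. At an unadjusted p under 0.05 there were 18 members, 14 partners and 726 genes. For FGD5-AS1 (log2 fold change 0.05), THAP7-AS1 (-0.13) and ADAMTSL4-AS1 (-0.01) the sh_IFI and sh_NC libraries overlapped. The difference between the overexpression and the hairpin effect was called for 4 members, all lower, beside 2.63% of all genes (1.31% higher and 1.32% lower): RAB11B-AS1 (-1.05), IER3-AS1 (-0.999), CD27-AS1 (-0.94) and IDH1-AS1 (-0.74), all log2 differences and all led by assembled transcripts. By annotated transcripts 0 of 105 members passed in limma, beside 2.67% of genes (1.26% higher and 1.41% lower), and 12 had an unadjusted p under 0.05. Without 1 library the count ranged from 0 lower (without sh_IFI replicate 2, sh_IFI replicate 3 or sh_NC replicate 2) to 5 (without OE_IFI replicate 3). Among partners 6 were higher and 5 lower in that difference, with LANCL1 (1.48), RPL34 (1.35), TBL1XR1 (1.17) and TFAP2A (1.08) the largest positive and IER3 (-1.22) the largest negative one. ITGB5, an integrin gene, was called only here (-0.65): its changes were -0.21 with overexpression and 0.44 with the hairpin.

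The control vector was also set against the control hairpin. In OE_NC against sh_NC, 6 members were higher and 11 lower (5.63%, beside 7.05% of all genes, 2.47% higher and 4.58% lower), and 9 partners were higher and 18 lower. That contrast shares the OE_NC libraries with OE_IFI against OE_NC, so the values of the 2 are not independent; 12 members were called in both. The direction depended on scaling: by the median of ratios 10 members were higher and 7 lower, with 545 and 434 genes. By quantile normalization 13 members were higher and 1 lower, with 448 and 406 genes. FGD5-AS1 was lower in OE_NC (log2 fold change -0.59), as were THAP7-AS1 (-0.75) and B4GALT1-AS1 (-0.64), whereas IER3-AS1 (0.58), IDH1-AS1 (0.46) and CD27-AS1 (0.70) were higher. Members called in this contrast alone were EGFR-AS1, GAS5-AS1, EXOC3-AS1, ZNF710-AS1 and FOXD2-AS1. Partners called in it alone were AFAP1, AZIN1, BASP1, DDX39B, DHRS4, MORF4L2, NFYC, PAXIP1, SRD5A3 and SRRM2. Each of these partner calls was lost without at least 1 of the 6 libraries. EXOC3-AS1, which starts beside the exocyst gene EXOC3, had 2.25, 1.68 and 2.29 FPKM in OE_NC, against 2.78, 3.77 and 3.51 FPKM in sh_NC (log2 fold change -0.50 ± 0.13 SE, limma adjusted p = 0.039), while EXOC3 had 15.6, 21.5 and 20.5 FPKM in OE_NC, against 20.9, 23.2 and 27.6 FPKM in sh_NC (log2 fold change -0.31, limma adjusted p = 0.35). By annotated transcripts 4 of 105 members passed in this contrast, beside 7.01% of genes (2.52% higher and 4.49% lower), and all were lower: THAP7-AS1, FGD5-AS1, EXOC3-AS1 and ZNF710-AS1. That count and direction rested on single libraries: without OE_NC replicate 1, 2 were higher (ALOX12-AS1 and FOXD2-AS1) and 0 lower, without OE_NC replicate 2, 3 were lower, and without OE_NC replicate 3 or any of the sh_NC replicates 1 was lower. All 17 calls apart from B4GALT1-AS1 were lost without at least 1 of the 6 libraries, and the counts ranged from 0 to 5 higher and from 2 to 7 lower.

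OE_IFI was set against the hairpin control as well, from which it differs in the kind of vector too. In OE_IFI against sh_NC 0 members and 0 partners passed in limma, beside 0.0286% of all genes (4, all higher), and 18 members and 16 partners had an unadjusted p under 0.05. By annotated transcripts 0 of 105 members passed in limma, beside 0.0168% of genes, and 8 had an unadjusted p under 0.05. IER3-AS1 (log2 fold change -0.28, adjusted p = 0.99), RAB11B-AS1 (-0.33, 0.98) and ADAMTSL4-AS1 (0.24, 0.999) did not pass, in limma, and FGD5-AS1 was at 0.01. The part that the separation of OE_NC had in the changes above was not tested.

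Genes that process antisense RNA were read from 3 lists, in OE_IFI against OE_NC. Of 22 genes of the nuclear exosome and its adaptors 2 rose and 0 fell, which is 9.09% beside 7.32% of all genes, with a median log2 fold change of 0.30 against 0.04 over all genes. The median of that list was -0.24 in OE_NC against sh_NC and 0.014 in OE_IFI against sh_NC. The core subunit EXOSC6 had 9.19, 8.54 and 8.95 FPKM in OE_IFI, against 6.46, 6.57 and 6.18 FPKM in OE_NC (log2 fold change 0.42, limma adjusted p = 0.022). The exosome cofactor MPHOSPH6 had 4.95, 6.56 and 4.36 FPKM in OE_IFI, against 1.89, 3.21 and 3.29 FPKM in OE_NC (log2 fold change 0.74, limma adjusted p = 0.03). Neither set overlapped. Of 16 genes of 3′ end processing and termination 0 passed in limma and 2 had an unadjusted p under 0.05. Of 21 tested genes that bind, edit or cleave double-stranded RNA, 0 rose and 2 fell (9.52%), OASL (log2 fold change -1.87, limma adjusted p = 2.5e-05) and OAS3 (-0.53, 0.014), both interferon-induced members of the oligoadenylate synthetase family. OASL had 1.64, 1.75 and 1.88 FPKM in OE_IFI, against 8.75, 10.1 and 8.44 FPKM in OE_NC, and 1.32, 1.88 and 2.33 FPKM in sh_IFI, against 1.46, 1.18 and 1.4 FPKM in sh_NC. With the hairpin 0 genes of the 3 lists passed in limma. Other non-coding names were counted for comparison: of 124 LINC genes tested 6 rose and 1 fell (5.65%, beside 7.32% of all genes), of 20 SNHG genes (hosts of small nucleolar RNAs) 3 rose and 0 fell (15%), and of 8 intronic or overlapping names 0 passed, with 0 at an unadjusted p under 0.05.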

How the data were processed

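RNA was sequenced from 12 libraries of TE-1 cells in 4 groups of 3, assigned by the sample titles. The deposited values are FPKM per gene and per transcript, made by the authors; per the submitters' processing notes the tools were HISAT2, StringTie, Cuffdiff and edgeR, whose roles and versions were not stated. Build, annotation and strand use: not given in the sources used here. Of 226788 annotated transcripts 205999 matched GENCODE release 29 (GRCh38) by identifier, and 93.2% of these had the same bounds; strand, overlap and gene type were taken from that release. A gene's FPKM equalled the sum of its transcripts to within 0.00175.

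The 14006 genes averaging 1 FPKM or more were fitted as log2(FPKM + 1) with limma 3.58.1 (R 4.3.3), trended prior, 1 group-means model over all libraries, 8 residual degrees of freedom, two-sided. On this scale low genes show smaller changes than on the FPKM scale. "Rose" and "fell" mean a Benjamini-Hochberg adjusted p under 0.05 over all genes tested. Low values lay on steps, but only 44% to 48% of them fell within 1% of one, so read numbers could not be rebuilt for a count test. The pair difference was tested by exact permutation of 3 against 3 libraries (Python 3.11.15, pandas 2.3.3, numpy 2.4.6; figures with matplotlib 3.10.9). The fitting code was run on simulated data with known changes, which does not check the calls given here.

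Named are IFI6, each member or partner called in any of the 5 comparisons, the 8 members of highest level, 3 on either side of the limit, the 5 largest and 5 smallest pair shifts (some are not reported here), and up to 3 called genes of each of 3 lists; genes lying under a leading transcript or beside a start were added after their values were seen. The members, lists and tests were chosen with earlier results of these data known. Alternatives were other filters (none, or at least 5 FPKM), a pseudocount of 0.1, scaling by the median of ratios or by quantiles, an untrended limma prior, fits restricted to the libraries compared, a replicate block, an added minimum log2 change of 1 in size, leaving out each library and, for pairs, values summed over transcripts. Annotated transcripts alone, also without each library, were added after the data were seen.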

Additional observations from a re-analysis of the deposited data

Results flagged for a closer look

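The effect of overexpression and the effect of the hairpin differed, by the interaction term in limma over 14006 genes, for 4 antisense genes (1.32% of the members) and 11 partners (4.28%), beside 2.63% of all genes. The antisense genes were RAB11B-AS1 (log2 difference -1.05, adjusted p = 0.02), IER3-AS1 (-0.999, 0.019), CD27-AS1 (-0.938, 0.034) and IDH1-AS1 (-0.736, 0.028). The partners with a positive difference were LANCL1 (1.48, adjusted p = 0.0045), RPL34 (1.35, 0.0054), TBL1XR1 (1.17, 0.036), TFAP2A (1.08, 0.02), B4GALT1 (0.976, 0.0033) and STARD7 (0.801, 0.02). Those with a negative difference were IER3 (-1.22, adjusted p = 0.0033), BHLHE40 (-0.827, 0.028), IDH1 (-0.752, 0.036), ITGB5 (-0.653, 0.024) and TXNDC12 (-0.633, 0.045). For IER3, IDH1 and their antisense genes the difference was called on both sides of the pair. With each of the 12 libraries left out in turn, B4GALT1, IER3, LANCL1 and RPL34 passed in all 12 fits, IER3-AS1 and TFAP2A in 8, RAB11B-AS1 and STARD7 in 7, IDH1, IDH1-AS1 and ITGB5 in 4, BHLHE40 and TBL1XR1 in 3, and CD27-AS1 and TXNDC12 in 2. On annotated transcripts RPL34 (adjusted p = 0.19) and TFAP2A (0.06) did not pass in limma, and by quantile normalization IDH1 and TXNDC12 did not. The OE_NC libraries, which stood apart from the other 9, enter every one of these differences, and their part in them was not tested. Groups of 3 libraries were too small to look for single libraries far from the others.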

How the results depend on the processing

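Of the recounts of members, partners and lists and the pair shifts, 324 stayed near the value given first, the others moved and 0 reversed. Single named genes kept direction and side of the threshold in 1067 refits and direction only in 478; the pair shift moved by more than 1 SD for DDX39B-AS1 (2.93 with a pseudocount of 0.1, 0.23 by annotated transcripts), ITFG2-AS1 (-0.40) and NNT-AS1 (0.37).

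In OE_IFI against OE_NC, members that rose numbered 4 without a filter, 2 at a minimum mean of 5 FPKM, 4 by quantile normalization, 3 by annotated transcripts, and 0 with only the libraries compared or at an absolute log2 change of 1. Members that fell numbered 3 at 5 FPKM and 0 under the last 3 of those settings. The upper quartile of the members' mean level was 3.65 FPKM, so most were not tested at 5 FPKM. Over all genes, 429 rose and 408 fell of 37599 without a filter, and 427 and 384 of 8393 at 5 FPKM. By quantiles these counts were 473 and 566 of 14006, and by the median of ratios 541 and 604. With only the libraries compared they were 123 and 102, and by annotated transcripts 502 and 392 of 11909. Partners that rose numbered 5 with only the libraries compared and 4 at a log2 change of 1, and those that fell 16 by either scaling, 2 with only the libraries compared and 1 at a log2 change of 1. Exosome genes that rose numbered 1 without a filter, at 5 FPKM and by quantiles, and 0 with only the libraries compared and at a log2 change of 1. By either scaling 1 gene of 3′ end processing fell, and 1 double-stranded RNA gene fell at 5 FPKM, with only the libraries compared and at a log2 change of 1. In the difference of effects, lower members numbered 2 at 5 FPKM, 0 by annotated transcripts and 1 at a log2 change of 1, and lower partners 3 without a filter, 8 by the median of ratios and 1 at a log2 change of 1. Lower genes there numbered 172 of 8393 at 5 FPKM and 168 of 11909 by annotated transcripts. They numbered 132 of 37599 without a filter and 240 of 14006 by the median of ratios.

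In OE_NC against sh_NC, higher members numbered 2 at 5 FPKM, 10 by the median of ratios, 13 by quantiles, 2 with only the libraries compared, and 0 by annotated transcripts or at a log2 change of 1. Lower members numbered 4 without a filter, 1 at 5 FPKM, 7 by the median of ratios, 1 by quantiles, 3 with only the libraries compared, 4 by annotated transcripts and 0 at a log2 change of 1. Higher partners numbered 5 without a filter, 14 by the median of ratios, 3 with only the libraries compared and 0 at a log2 change of 1, and lower ones 8 and 3 under the last 2. Over all genes, 313 were higher and 458 lower of 37599 without a filter, and 287 and 435 of 8393 at 5 FPKM. Of 14006 genes they numbered 545 and 434 by the median of ratios and 448 and 406 by quantiles. With only the libraries compared there were 172 and 270, and by annotated transcripts 300 and 535 of 11909.

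Leaving out each library, members numbered 2 to 7 higher and 4 to 10 lower in OE_IFI against OE_NC, 0 to 2 and 0 to 5 in the difference of effects, and 0 to 5 and 2 to 7 in OE_NC against sh_NC. Partners numbered 8 to 12 and 5 to 11, 3 to 8 and 1 to 11, and 4 to 8 and 8 to 15. Exosome genes that rose numbered 0 to 2 and double-stranded RNA genes that fell 2 to 3. The pair shift ranged from -0.087 to -0.0037 with overexpression and from -0.091 to -0.039 with the hairpin. All counts for sh_IFI against sh_NC and OE_IFI against sh_NC stayed at 0. Apart from fewer genes or libraries tested, the cause was not tested.

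Same-numbered libraries showed no strong pairing, which was not tested. Their deviations correlated at 0.0841, 0.195 and 0.0862 in OE_IFI and OE_NC, all positive. In sh_IFI and sh_NC they correlated at -0.0636, -0.0191 and -0.0821, all negative. Of 12 libraries, 6 correlated best with their own number. With the replicate block, 7 members rose and 8 fell in OE_IFI against OE_NC, 4 were lower in the difference of effects, and 4 were higher and 8 lower in OE_NC against sh_NC. Over all 14006 genes the block gave 534 higher and 428 lower, 152 and 161, and 302 and 570, in the same order. Depth is unknown, which limits members near 1 FPKM most.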
